A study of Homo sapiens with 6 samples.

Results

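The subject is 10 genes of Wnt signalling at the cell surface: the ligand genes WNT4, WNT5A, WNT5B, WNT7A, WNT7B and WNT10A, the secreted inhibitor genes DKK1, DKK3 and SFRP1, and the receptor gene FZD6. They were taken by name from the probe sets that carry 1 gene symbol, keeping the probe set of highest mean for each gene, and all 10 were found among the 18377 genes measured. RNA came from MCF10A-HER2/3 cells, a derivative of the non-tumorigenic human mammary epithelial line MCF10A, kept for 15 days in three-dimensional culture and hybridised to 6 Affymetrix HuGene-1_0-st-v1 arrays. A doxycycline-inducible lentiviral vector carried SHP2 miR1, SHP2 miR2 or a control miR (CTRL miR), with 2 arrays in each of these 3 groups. SHP2 is the tyrosine phosphatase encoded by PTPN11, which acts downstream of receptor tyrosine kinases. All 3 groups, the CTRL miR included, were HER2/3 cells, received doxycycline from the day after seeding with renewal every 2 days, and grew in medium with EGF, insulin, cholera toxin, hydrocortisone and horse serum. The labels do not say whether the lines were clones or whether the arrays of a group came from separate cultures, so the spread behind every p-value here is that of these arrays and may be purely technical.

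Wnt proteins are lipid-modified secreted ligands that bind Frizzled receptors. With the LRP5 and LRP6 co-receptors they stabilise beta-catenin, which drives transcription with TCF and LEF factors, while other combinations act on cell polarity and calcium without beta-catenin. DKK1 blocks LRP5 and LRP6, and secreted Frizzled-related proteins such as SFRP1 bind Wnts outside the cell. In the mouse mammary gland, Wnt4 acts downstream of progesterone in side branching and Wnt5a restrains ductal growth.

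The stretches of 250 bases upstream of the annotated starts of WNT5A and DKK1 are shown because these are the genes of the set that fell together. They are from RefSeq on GRCh38.p14. Its promoter table held 6 of the 10 genes (WNT4, WNT5A, WNT5B, WNT7A, WNT10A and DKK1), with 2 starts each for WNT5A and WNT5B. Each stretch shown is written 5′ to 3′ on the strand of its gene. Those of WNT5A are at chr3:55487307-55487556 and chr3:55481399-55481648, both on the minus strand. That of DKK1 is at chr10:52314031-52314280 on the plus strand.
WNT5A first start: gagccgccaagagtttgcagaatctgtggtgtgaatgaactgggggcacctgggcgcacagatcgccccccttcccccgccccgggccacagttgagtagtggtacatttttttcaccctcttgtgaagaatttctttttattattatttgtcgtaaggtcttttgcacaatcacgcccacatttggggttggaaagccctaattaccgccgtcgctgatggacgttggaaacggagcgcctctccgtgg
WNT5A second start: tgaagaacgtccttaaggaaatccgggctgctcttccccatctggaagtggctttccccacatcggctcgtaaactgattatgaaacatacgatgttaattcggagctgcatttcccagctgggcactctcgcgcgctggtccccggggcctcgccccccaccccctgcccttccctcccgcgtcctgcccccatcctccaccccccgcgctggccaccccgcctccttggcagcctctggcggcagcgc
DKK1: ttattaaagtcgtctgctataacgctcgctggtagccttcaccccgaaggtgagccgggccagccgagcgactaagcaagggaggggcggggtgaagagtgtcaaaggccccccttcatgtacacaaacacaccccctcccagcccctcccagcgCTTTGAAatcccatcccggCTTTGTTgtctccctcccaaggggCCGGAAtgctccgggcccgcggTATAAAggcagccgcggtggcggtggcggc
Capitals mark the motif words found. Words were searched on both strands. Those of TCF and LEF factors were CTTTGAA and CTTTGAT, besides which CTTTGTA and CTTTGTT were searched. The word of AP-1 was TGACTCA. The word of ETS factors was CCGGAA, and that of the TATA box was TATAAA. The words were chosen with the sequences in view. DKK1 held the TCF and LEF words CTTTGAA and CTTTGTT, at 95 to 89 and 76 to 70 bases before the start, then CCGGAA at 52 to 47 and TATAAA at 30 to 25, with no overlap between them. Neither WNT5A window held any of the words. Of 35116 such windows in the table, 12% held a TCF and LEF word, 4.2% the AP-1 word, 14.5% the ETS word and 10.7% the TATA word. The WNT5A windows were 52.8% and 64.4% G and C with 14 and 18 CpG pairs, and the DKK1 window was 62.8% with 18, against medians of 58% and 11 over all windows. A word is a description of the sequence and shows no binding.

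PTPN11 read 6.04 and 5.71 with SHP2 miR1, 6.90 and 7.28 with SHP2 miR2, and 7.96 and 8.44 with the CTRL miR (log2 probe set values, as all levels here). All 4 SHP2 miR arrays were below both controls. Averaged over both SHP2 miRs, PTPN11 fell by 1.72 on the log2 scale (SE 0.19, adjusted p = 0.00184). It fell by 2.32 with SHP2 miR1 (adjusted p = 0.000548), and the difference with SHP2 miR2 was -1.11 (adjusted p = 0.0813). Adjusted p-values are those of limma over all 18377 genes, with a threshold of 0.05. Array medians lay between 5.23 and 5.35, and arrays of the same group correlated at 0.985 to 0.986 across genes. The SD over probe sets was 1.92 on both SHP2 miR1 arrays, 1.95 and 1.97 with SHP2 miR2, and 1.99 and 2.02 on the controls. The part of this narrower spread in the differences below was not tested. A gene was called dim where its mean did not exceed the 40th percentile of probe set means. None of the 8 measured basal mammary markers was dim. Of the markers of other cell types, 3 of 7 were dim for leukocytes (PTPRC, ITGAM and LYZ), 4 of 7 for endothelium (CDH5, VWF, KDR and EMCN), 3 of 10 for fibroblasts (LUM, PDGFRA and POSTN) and 2 of 5 for adipocytes (ADIPOQ and FABP4). The others were above that level, among them CD68 at 8.69 to 9.53, DCN at 8.11 to 8.58, CD14 at 6.24 to 7.73 and COL1A1 at 6.63 to 7.05 over the 6 arrays. The mean of 8 luminal markers was 6.44 to 6.58 on the SHP2 miR arrays and 6.24 to 6.37 on the controls, with ESR1, PGR and PRLR dim. Averaged over both SHP2 miRs, 0 of these 8 passed the threshold, where 4.2% of all genes did. The mean of 7 leukocyte markers was 5.67 to 5.74 with SHP2 miR1, 5.44 to 5.60 with SHP2 miR2 and 5.44 to 5.50 with the CTRL miR. Of these, CD14 was at 0.96 on average (adjusted p = 0.0505), and with SHP2 miR1 alone at 1.08 (adjusted p = 0.0366), where CD68 was at -0.71 (adjusted p = 0.0272). The part of either list in the differences below was not tested. In bulk RNA, fewer cells that express a gene and less RNA per cell cannot be told apart.

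With SHP2 reduced, WNT5A and DKK1 fell, SFRP1 rose, and the other 7 genes did not pass the test. Averaged over both SHP2 miRs, 2 of the 10 genes were lower and 1 higher, where 4.2% of all genes passed (2.67% lower and 1.53% higher). With SHP2 miR1 alone the same 3 genes passed in the same directions, where 8.6% of all genes passed (5.94% lower and 2.66% higher). With SHP2 miR2 alone 0 of the 10 passed in limma and 4 had an unadjusted p under 0.05, where 0.37% (0.19% higher and 0.18% lower) and 11% of all genes did so. An unadjusted p under 0.05 was reached by 4 of the 10 genes on average and by 5 with SHP2 miR1, where 20.9% and 28.1% of all genes reached it. The median difference of the 10 genes was 0.03, against 0.02 over all genes, in the average comparison. All 4 SHP2 miR arrays lay above both controls for 2 of the genes (SFRP1 and WNT10A) and below both for 2 others (WNT5A and DKK1), where 12.6% and 13.6% of all genes did so, 26.1% together. The 2 control arrays serve in the comparison of either SHP2 miR.

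**Figure D1:**
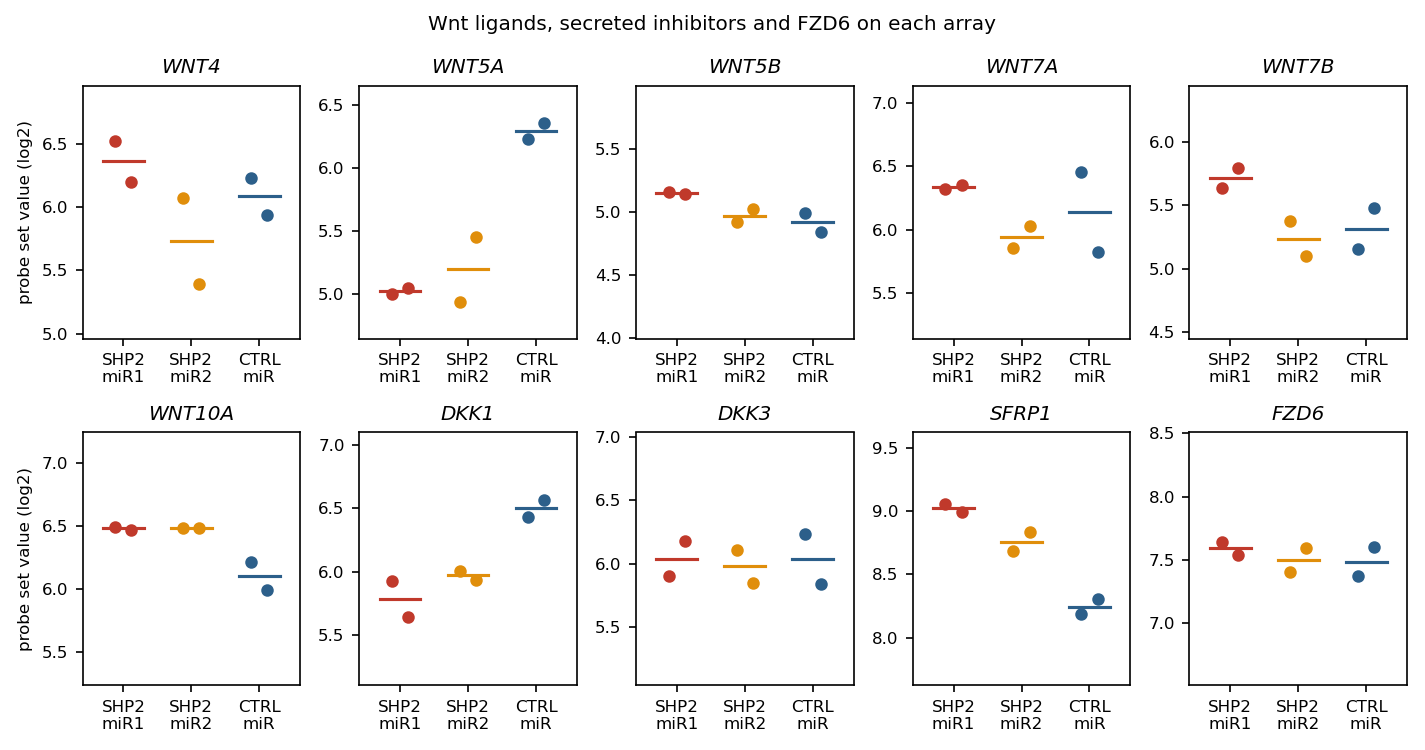
Log2 probe set values of the 10 genes (vertical axes, each spanning 2 log2 units) on each array; points are arrays and lines are the means of 2 arrays with SHP2 miR1, SHP2 miR2 and the CTRL miR. WNT5A and DKK1 sit below both controls on all 4 SHP2 miR arrays, SFRP1 and WNT10A above both, and the other 6 genes overlap the controls.

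Among the ligand genes, WNT5A, which mostly signals without beta-catenin, was the one that passed the test. Its values were 5.0035 and 5.05 with SHP2 miR1, 4.94 and 5.45 with SHP2 miR2, and 6.23 and 6.36 with the CTRL miR. The SHP2 miR2 arrays enclosed both SHP2 miR1 arrays, and all 4 were below both controls. Averaged over both SHP2 miRs, WNT5A fell by 1.18 (SE 0.16, 2.27-fold, adjusted p = 0.00522), and with SHP2 miR1 alone its difference was -1.27 (SE 0.19, 2.41-fold, adjusted p = 0.00552). It was -1.10 with SHP2 miR2 (SE 0.19, 2.14-fold, 95% interval -1.52 to -0.67) and missed the threshold (adjusted p = 0.0523). The call of the average rested on both controls, with adjusted p = 0.0529 without CTRL miR replicate 1 and 0.0986 without replicate 2. WNT5A kept its call with any SHP2 miR array left out. With SHP2 miR1 alone the call was lost without CTRL miR replicate 2 (adjusted p = 0.0719).

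WNT10A, a ligand of the beta-catenin branch that is known from tooth and hair development, read 6.49 and 6.47 with SHP2 miR1, 6.48 and 6.48 with SHP2 miR2, and 6.21 and 5.99 with the CTRL miR. The 4 SHP2 miR arrays were nearly equal and above both controls, which were 0.22 apart. The average difference of 0.38 (SE 0.13, 1.30-fold, 95% interval 0.09 to 0.68) missed the threshold (adjusted p = 0.144). It was 0.38 with either SHP2 miR alone (adjusted p = 0.143 with SHP2 miR1 and 0.390 with SHP2 miR2).

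WNT4, the ligand named above for side branching in mice, read 6.53 and 6.20 with SHP2 miR1, 6.08 and 5.39 with SHP2 miR2, and 6.24 and 5.94 with the CTRL miR. The arrays of the SHP2 miR1 and control groups overlapped, and 1 of the SHP2 miR2 arrays lay between the controls. Its differences against control were 0.28 with SHP2 miR1 (adjusted p = 0.463) and -0.35 with SHP2 miR2 (adjusted p = 0.626), and the average was -0.04 (adjusted p = 0.945).

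WNT7B, a ligand of lung and kidney epithelium in mouse development, read 5.64 and 5.79 with SHP2 miR1, 5.37 and 5.10 with SHP2 miR2, and 5.15 and 5.48 with the CTRL miR. Both SHP2 miR1 arrays were above both controls, whereas the SHP2 miR2 arrays overlapped them. The difference was 0.40 with SHP2 miR1 (adjusted p = 0.177), -0.08 with SHP2 miR2 (adjusted p = 0.911) and 0.16 on average (adjusted p = 0.591).

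WNT7A, which patterns limbs and the female reproductive tract in mice, read 6.32 and 6.35 with SHP2 miR1, 5.85 and 6.03 with SHP2 miR2, and 6.45 and 5.82 with the CTRL miR. The controls were 0.63 apart, the widest gap between 2 controls among the 10 genes, and they enclosed all 4 SHP2 miR arrays. Its average difference was 0.00 (95% interval -0.41 to 0.41, adjusted p = 0.995). WNT5B, the close relative of WNT5A, read 5.15 and 5.14 with SHP2 miR1, 4.92 and 5.02 with SHP2 miR2, and 4.99 and 4.84 with the CTRL miR. Both SHP2 miR1 arrays were above both controls and the SHP2 miR2 arrays overlapped them. Its average difference was 0.14 (95% interval -0.15 to 0.43, adjusted p = 0.566).

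**Figure D2:**
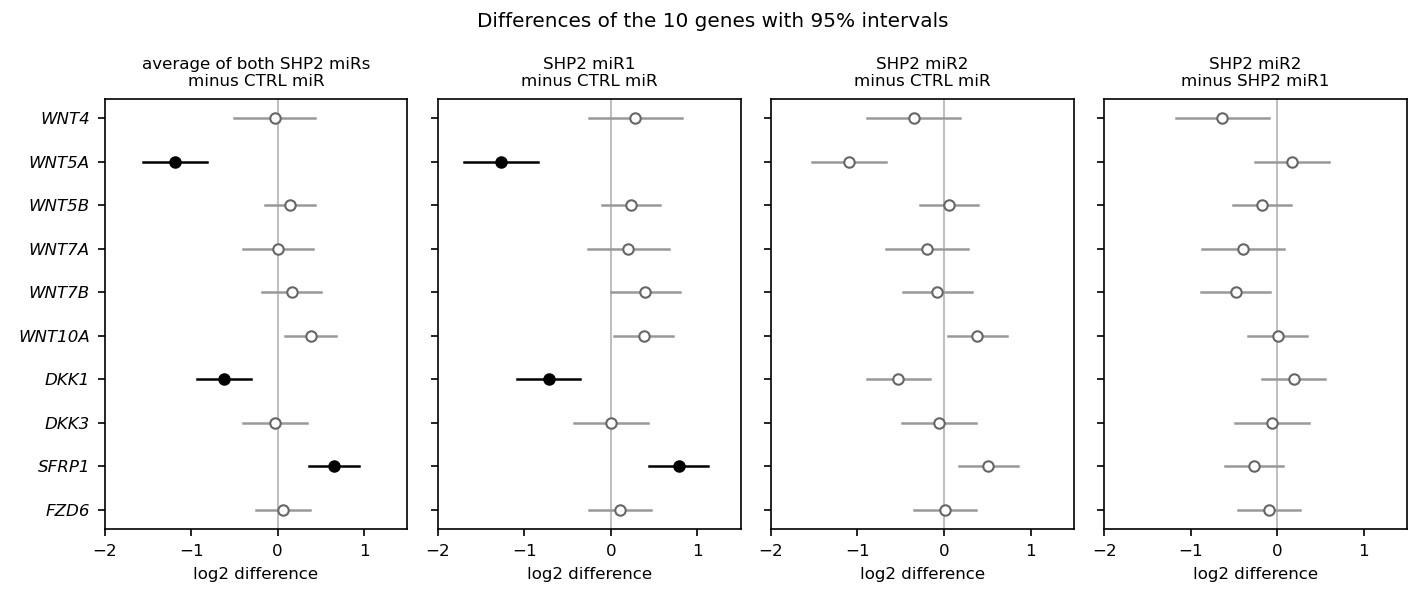
Log2 differences (horizontal axes) of the 10 genes in the 4 comparisons, with 95% intervals from the limma fit; filled points passed an adjusted p of 0.05 over all genes. WNT5A, DKK1 and SFRP1 are filled in the average and the SHP2 miR1 comparison, and no gene is filled with SHP2 miR2 alone or between the SHP2 miRs.

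Of the secreted inhibitor genes, DKK1 fell and SFRP1 rose. DKK1, whose product blocks the LRP5 and LRP6 co-receptors and which is itself induced by beta-catenin in many cell types, read 5.92 and 5.64 with SHP2 miR1, 6.01 and 5.94 with SHP2 miR2, and 6.44 and 6.57 with the CTRL miR. All 4 SHP2 miR arrays were below both controls, those of SHP2 miR1 being the lowest. DKK1 fell by 0.62 on average (SE 0.14, 1.54-fold, adjusted p = 0.0409) and by 0.72 with SHP2 miR1 (SE 0.16, 1.65-fold, adjusted p = 0.0291). It differed by -0.53 with SHP2 miR2 (SE 0.16, 95% interval -0.89 to -0.17, adjusted p = 0.257). The average call of DKK1 was lost without any 1 of the 6 arrays, with adjusted p-values of 0.0518 without SHP2 miR1 replicate 1 up to 0.310 without CTRL miR replicate 2. Its call with SHP2 miR1 was lost without any 1 of the 4 arrays compared (adjusted p = 0.0600 to 0.184).

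SFRP1, a decoy for Wnt ligands that is often silenced by promoter methylation in breast cancer, read 9.06 and 8.99 with SHP2 miR1, 8.68 and 8.83 with SHP2 miR2, and 8.19 and 8.30 with the CTRL miR. No arrays of different groups overlapped, and SHP2 miR1 was the highest group. SFRP1 rose by 0.65 on average (SE 0.13, 1.57-fold, adjusted p = 0.0268) and by 0.78 with SHP2 miR1 (SE 0.15, 1.72-fold, adjusted p = 0.0161). It differed by 0.51 with SHP2 miR2 (SE 0.15, 95% interval 0.18 to 0.85, adjusted p = 0.237). The average call of SFRP1 also needed all 6 arrays, with adjusted p-values of 0.0550 without SHP2 miR2 replicate 1 up to 0.156 without CTRL miR replicate 2. Its call with SHP2 miR1 was likewise lost without any 1 of the 4 arrays compared (adjusted p = 0.0590 to 0.0946).

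DKK3, a relative of DKK1 that is not known as a strong LRP6 blocker, read 5.90 and 6.18 with SHP2 miR1, 6.11 and 5.85 with SHP2 miR2, and 6.23 and 5.84 with the CTRL miR. The controls enclosed all 4 SHP2 miR arrays. Its average difference was -0.03 (95% interval -0.40 to 0.34, adjusted p = 0.944). DKK3 had a second, dim probe set, which read 3.63 and 3.34 with SHP2 miR1, 3.65 and 3.68 with SHP2 miR2, and 3.46 and 3.79 with the CTRL miR, and whose groups overlapped too.

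FZD6, a Frizzled receptor tied to hair and tissue polarity in mice, read 7.64 and 7.54 with SHP2 miR1, 7.40 and 7.59 with SHP2 miR2, and 7.37 and 7.60 with the CTRL miR. All groups overlapped. The average difference of FZD6 was 0.06 (95% interval -0.25 to 0.37, adjusted p = 0.845).

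**Figure D3:**
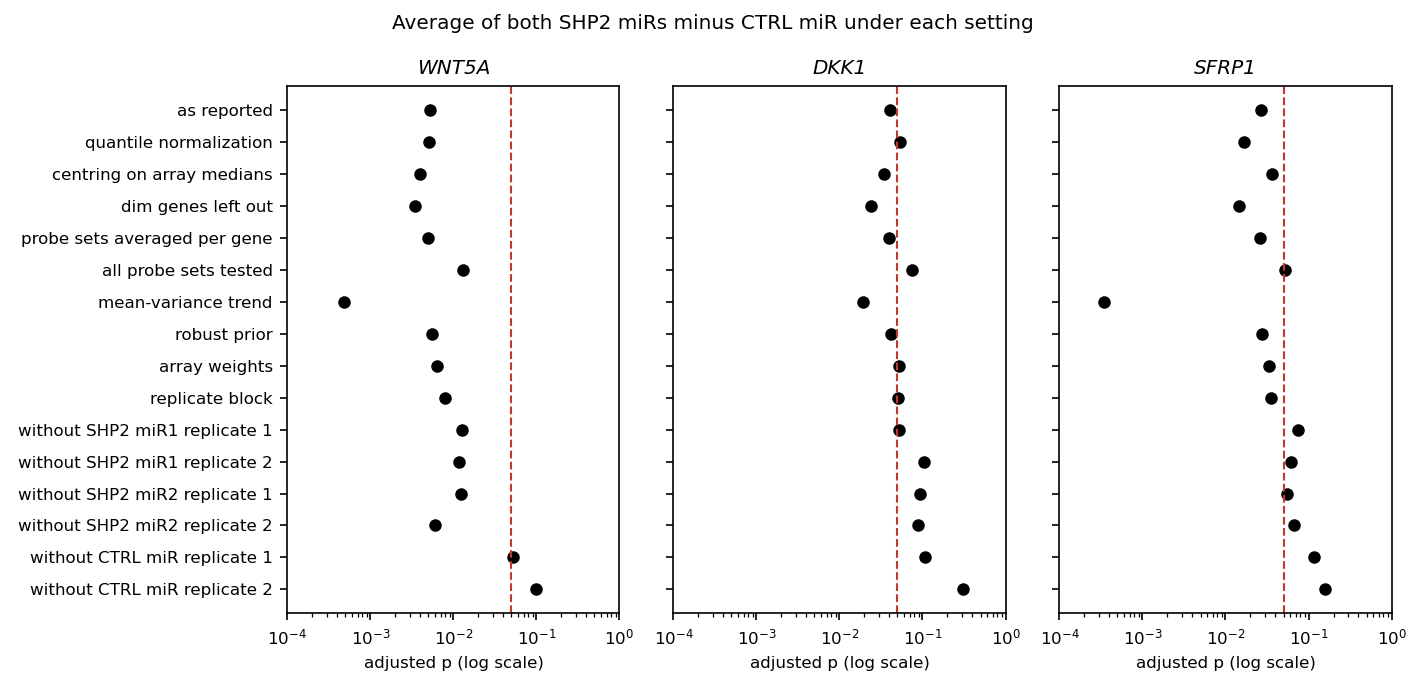
Adjusted p (log scale, horizontal axes) of the average comparison for WNT5A, DKK1 and SFRP1 as reported and under 15 other settings of the analysis (rows), with the threshold of 0.05 as a dashed line. Leaving out a control moves each gene past 0.05 to the right, up to 0.0986 for WNT5A, 0.310 for DKK1 and 0.156 for SFRP1.

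The SHP2 miRs were also compared with each other. In limma 0 of the 10 genes passed in SHP2 miR2 minus SHP2 miR1, where 0.19% of all genes did (0.152% higher and 0.0381% lower), and 2 had an unadjusted p under 0.05, where 17.7% of all genes did. These were WNT4, at -0.63 (95% interval -1.17 to -0.10, adjusted p = 0.228), and WNT7B, at -0.48 (95% interval -0.88 to -0.08, adjusted p = 0.222). For WNT5A the difference between the SHP2 miRs was 0.17 (95% interval -0.26 to 0.59). For DKK1 it was 0.19 (95% interval -0.17 to 0.55), and for SFRP1 -0.27 (95% interval -0.61 to 0.07). For PTPN11 it was 1.21 (95% interval 0.73 to 1.70) and missed the threshold (adjusted p = 0.0645).

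The 10 genes differed in how closely arrays of a group agreed. WNT4 had the widest spread, with a residual SD of 0.33, and 92.8% of all genes had a smaller one. WNT5B and SFRP1 had the narrowest, at 0.08 each, with 10.7% and 12.5% of genes below them. At its own moderated spread, WNT4 would have needed a difference of 0.87 to pass in the average comparison, WNT7A 0.77, DKK3 0.70, WNT7B 0.65, FZD6 0.59, WNT10A 0.55 and WNT5B 0.55. Smaller observed differences in these 7 genes would not have passed at this spread. True changes in them could therefore have gone uncalled with 2 arrays a group.

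For the 3 genes that passed, the genes with the most similar values over the 6 arrays were sought by root-mean-square distance, each gene being centred on its own mean. Closest to WNT5A were the cytokinesis gene ANLN at 0.09, the scaffold gene FRMD4B at 0.13 and the secreted glycoprotein gene FSTL1 at 0.14 (log2 units). ANLN read 7.26 and 7.14 with SHP2 miR1, 7.12 and 7.72 with SHP2 miR2, and 8.24 and 8.43 with the CTRL miR, so it shared with WNT5A the higher second SHP2 miR2 array. Closest to SFRP1 were the tight junction gene CLDN1 at 0.05, the folate transporter gene SLC46A1 at 0.07 and the kinase gene MAP3K14 at 0.07. Closest to DKK1 were FAXC at 0.04, AAMDC at 0.06 and the phospholipase gene DDHD1 at 0.06. These are the nearest of all other genes on 6 arrays, chosen for their likeness.

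The rest of the pathway was described in 8 lists by role, again for the average comparison. There the median over all genes was 0.02, 1.53% of all genes passed higher and 2.67% lower, and 20.9% had an unadjusted p under 0.05. AXIN2, LGR5, RNF43, ZNRF3, NOTUM and LEF1 are each in the beta-catenin target list and in 1 other list, so the lists are not independent. The dim gene LGR5 counts at an unadjusted p under 0.05 in both of its lists. PORCN, SDC4, TCF7, CSNK1E and PRICKLE4 were on the lists but not measured. Of 13 other Wnt ligand genes 0 passed in limma and 2 had an unadjusted p under 0.05 (20.9% over all genes), WNT9B at 0.46 (adjusted p = 0.123) and WNT9A at 0.40 (adjusted p = 0.20). The list median was 0.19. Of 16 other secreted inhibitors and R-spondins, which are LGR ligands that raise Wnt signalling, 0 passed and 1 had an unadjusted p under 0.05 (20.9% over all genes), with a median of 0.11. SFRP2, a relative of SFRP1, was at 0.38 (adjusted p = 0.173) and DKK2, which was dim, at 0.46 (adjusted p = 0.243).

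Of 22 receptors and co-receptors other than FZD6, 2 rose and 0 fell, where 1.53% of all genes were called higher and 2.67% lower, with a median of 0.17. An unadjusted p under 0.05 was reached by 5 higher and 1 lower (20.9% over all genes). FZD4, a Frizzled that also binds norrin, read 7.09 and 7.17 with SHP2 miR1, 6.75 and 6.64 with SHP2 miR2, and 5.92 and 5.83 with the CTRL miR. No groups overlapped, and SHP2 miR1 was highest. With SHP2 miR1 alone FZD4 was at 1.25 (adjusted p = 0.00177). With SHP2 miR2 alone it was at 0.82 and missed the threshold (adjusted p = 0.061). The average comparison gave a call. FZD4 rose by 1.04 (SE 0.13, adjusted p = 0.00321), and its adjusted p was 0.0622 without CTRL miR replicate 2. LGR4, a receptor for R-spondins, read 6.05 and 5.91 with SHP2 miR1, 6.34 and 6.38 with SHP2 miR2, and 5.48 and 5.59 with the CTRL miR. Here too the groups did not overlap, with SHP2 miR2 highest. LGR4 missed the threshold with SHP2 miR1 alone, at 0.44 (adjusted p = 0.0975), and with SHP2 miR2 alone, at 0.82 (adjusted p = 0.061). Only the average comparison gave a call. LGR4 rose by 0.63 (SE 0.13, adjusted p = 0.0287), and the call was lost without any 1 of the 6 arrays, with adjusted p-values of 0.0572 without SHP2 miR1 replicate 2 up to 0.163 without CTRL miR replicate 2.

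Inside the cell, 0 of 17 genes of the destruction complex and Dishevelled passed, with a median of -0.19 and 7 genes at an unadjusted p under 0.05 (20.9% over all genes), of which 6 were lower. GSK3B, the kinase that marks beta-catenin for degradation, was at -0.65 and just missed the threshold (adjusted p = 0.0505), and BTRC, which recognises marked beta-catenin, was at -0.46 (adjusted p = 0.0851). Of 15 TCF factors and beta-catenin partners 0 passed and 4 had an unadjusted p under 0.05, 2 higher and 2 lower (20.9% over all genes), with a median of -0.11. The co-activator gene BCL9 was at -0.62 (adjusted p = 0.0662) and the co-repressor gene TLE4 at 0.40 (adjusted p = 0.174).

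Beta-catenin target genes had a median of 0.10, and 2 of the 19 measured passed, both lower, where 2.67% of all genes were called lower and 1.53% higher. An unadjusted p under 0.05 was reached by 2 higher and 3 lower (20.9% over all genes). PPARD, a nuclear receptor, read 6.19 and 6.22 with SHP2 miR1, 6.22 and 5.93 with SHP2 miR2, and 6.96 and 6.80 with the CTRL miR. FOSL1, an AP-1 subunit also induced by ERK signalling, read 7.58 and 7.48 with SHP2 miR1, 7.60 and 7.51 with SHP2 miR2, and 8.28 and 8.09 with the CTRL miR. All 4 SHP2 miR arrays were below both controls for either gene. With SHP2 miR1 alone PPARD was at -0.67 (adjusted p = 0.0369) and FOSL1 at -0.65 (adjusted p = 0.0332). With SHP2 miR2 alone both missed the threshold, PPARD at -0.81 (adjusted p = 0.0881) and FOSL1 at -0.63 (adjusted p = 0.149). On average PPARD fell by 0.74 (SE 0.14, adjusted p = 0.0225) and FOSL1 by 0.64 (SE 0.13, adjusted p = 0.0304). Without any 1 of the 6 arrays FOSL1 missed the threshold, and PPARD missed it without any of them but SHP2 miR2 replicate 1, at adjusted p-values of up to 0.138 for FOSL1 and 0.137 for PPARD, both without CTRL miR replicate 2. AXIN2, the most widely used reporter of beta-catenin activity, was dim here, at 4.39 to 4.99 over the 6 arrays. Its difference was 0.26 (adjusted p = 0.322), and it was named after its value was seen.

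The list named ligand maturation and secretion held WLS, TRABD2A and, for the rest, genes of heparan sulphate proteoglycans or their synthesis. PORCN and SDC4 were not measured. Of its 8 measured genes 0 passed, with a median of 0.09. An unadjusted p under 0.05 was reached by 5, 3 higher and 2 lower (20.9% over all genes). The heparan sulphate proteoglycan genes GPC4, which was dim, and GPC6 were at 0.53 (adjusted p = 0.0714) and 0.38 (adjusted p = 0.136). Of 22 genes of planar polarity and beta-catenin independent signalling, the branch of WNT5A and FZD6, 0 passed and 4 had an unadjusted p under 0.05, 1 higher and 3 lower (20.9% over all genes), with a median of -0.02. CELSR1, a polarity cadherin, was at -0.51 (adjusted p = 0.0550), and the dim formin gene DAAM1 at -0.52 (adjusted p = 0.111). List medians with SHP2 miR1 and SHP2 miR2 in turn were 0.38 and 0.01 for other ligands. They were 0.26 and 0.01 for other inhibitors and R-spondins, 0.20 and 0.03 for receptors, and 0.20 and 0.0042 for targets. For the destruction complex they were -0.26 and -0.10, for beta-catenin partners -0.15 and -0.06, and for maturation and secretion 0.06 and 0.07. Planar polarity genes had -0.0010 and -0.03, against 0.04 and -0.01 over all genes. Dim genes entered these medians. Among the other ligands these included WNT2, WNT8A, WNT8B and WNT16. Among the other inhibitors and R-spondins they included DKK2, DKKL1, SFRP4, FRZB, WIF1, SOSTDC1 and RSPO3. The part of dim genes, and of the narrower spread on the SHP2 miR1 arrays, in these medians was not tested.

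**Figure D4:**
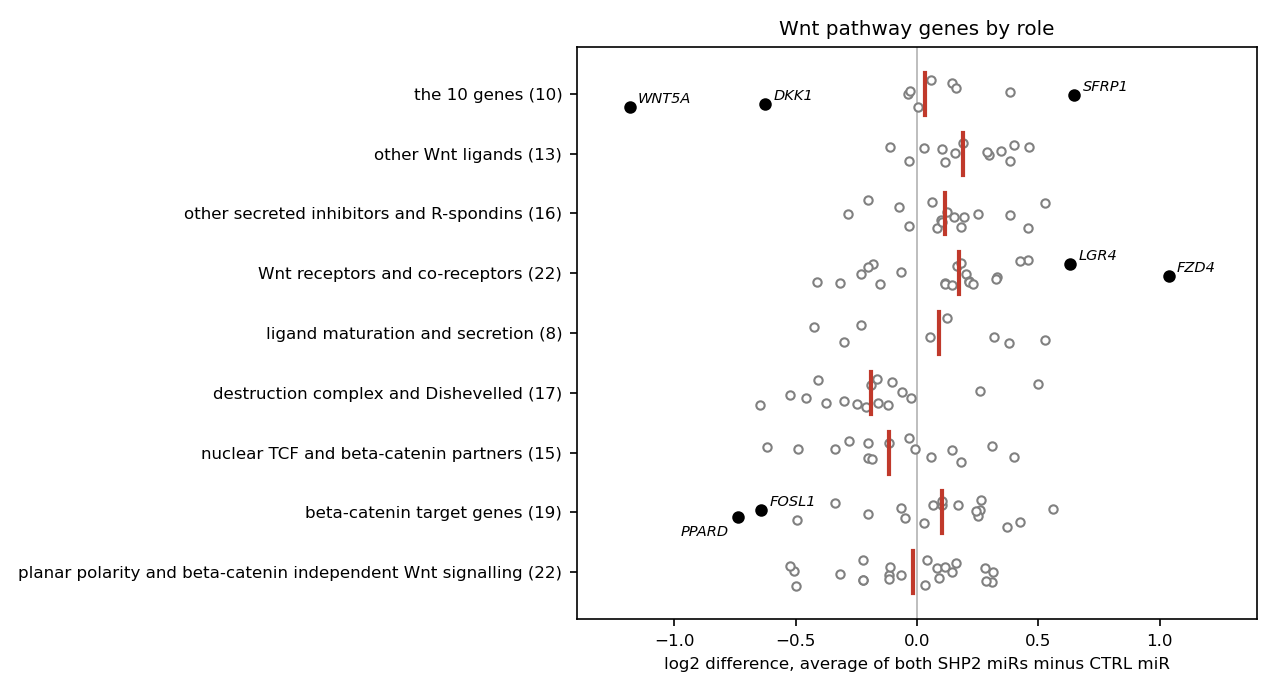
Log2 differences of the average comparison (horizontal axis) for the 10 genes and 8 lists of other Wnt pathway genes (rows, number measured in brackets); each point is a gene, filled and named where its adjusted p was under 0.05, and red bars are list medians. WNT5A, DKK1, PPARD and FOSL1 are filled on the lower side and SFRP1, LGR4 and FZD4 on the higher side.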

How the data were processed

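Total RNA (100 ng a sample) was hybridised to 6 HuGene-1_0-st-v1 arrays. The authors deposited 1 processed log2 value per probe set and array, the base being inferred from the range. Per the submitters' processing notes, these came from R 2.10 with oligo 1.8. How these values were background-corrected, normalized and summarised, and on which build, is not given in the sources used here. Groups and replicate numbers came from the sample titles.

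Of 28869 probe sets, 19310 had 1 gene symbol, 1752 several and 7807 none. Only those with 1 symbol were named. The probe set of highest mean was kept for the 685 genes with more than 1, which left 18377 genes. The model, run in R 4.3.3 with limma 3.58.1, held 3 groups and all 6 arrays, with 3 residual and 6.10 prior degrees of freedom. Two-sided p-values were adjusted by the Benjamini-Hochberg method over all genes. The number of arrays limits the precision. The fit was tested on simulated data.

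The 10 genes and the lists were chosen with earlier results of these data known. Named genes were PTPN11, the 10 genes, up to 4 passing genes of each list by smallest p (up to 2 of smallest p where none passed), and the 3 nearest genes of each of the 3 genes of smallest p. AXIN2 was named besides. Alternatives were quantile normalization, centring, leaving out dim genes, averaging or testing all probe sets, a trend or robust prior, array weights, only the arrays compared, a replicate block and leaving out each array.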

Additional observations from a re-analysis of the deposited data

How the results depend on the processing

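Under quantile normalization, centring, omission of dim genes, averaging of probe sets, testing of all probe sets, a trend or robust prior, array weights and the replicate block, WNT5A passed in the average comparison under all 9, SFRP1 under 8 and DKK1 under 5, and none of these genes changed sign. Of the 10 genes, 3 passed on average as reported, 1 with all probe sets tested, and 0 to 1 with an array left out. With SHP2 miR1 alone it was 3 as reported and 0 to 3 with an array left out. With SHP2 miR2 alone it was 0 as reported, 1 without dim genes (WNT5A, adjusted p = 0.0327) and 2 with a mean-variance trend (WNT5A, adjusted p = 0.00927, and SFRP1, adjusted p = 0.0207). Testing all probe sets raises the number of tests and leaving out dim genes lowers it. The part of this, or of any other cause, in these counts was not tested. Over all genes the count of 771 lay between 108 and 1793, that of 1581 for SHP2 miR1 between 269 and 2786, that of 68 for SHP2 miR2 between 0 and 367, and that of 35 between the SHP2 miRs between 0 and 446. With a replicate block DKK1 missed the threshold (adjusted p = 0.0501, difference -0.62), which left 2 of the 10 genes. Deviations of arrays with the same number correlated at 0.07, 0.14 and 0.01 between groups, so the numbers were not taken as pairs. Differences that changed sign were small and none had passed. On average these were WNT4 under quantile normalization (0.0022) and WNT7A under centring (-0.034). For DKK3 with SHP2 miR1 it was -0.080 under centring and -0.071 with averaged probe sets. Between the SHP2 miRs, WNT10A was -0.045 under quantile normalization and DKK3 0.028 under centring and 0.060 with averaged probe sets. With an array left out, the average differences spanned -0.21 to 0.14 for WNT4, -0.31 to 0.32 for WNT7A, -0.00087 to 0.32 for WNT7B, -0.22 to 0.17 for DKK3 and -0.054 to 0.17 for FZD6. With SHP2 miR1 they spanned -0.11 to 0.52 for WNT7A, -0.20 to 0.20 for DKK3 and -0.0076 to 0.22 for FZD6. With SHP2 miR2 they spanned -0.023 to 0.13 for WNT5B, -0.51 to 0.12 for WNT7A, -0.24 to 0.083 for WNT7B, -0.25 to 0.14 for DKK3 and -0.10 to 0.13 for FZD6. Between the SHP2 miRs they spanned -0.087 to 0.42 for WNT5A, -0.0055 to 0.014 for WNT10A, -0.20 to 0.078 for DKK3 and -0.19 to 0.0030 for FZD6. A lone array was then assumed to vary like the other groups. Only the arrays compared could not be used for the average, which takes in all groups.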

Other observations

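With SHP2 miR1 alone, further Wnt pathway genes passed the limma threshold, with values that were seen before they were chosen. Calls were 1 of 13 other ligands, 0 of 16 other inhibitors and R-spondins, and 1 of 22 receptors. They were 2 of 8 in the maturation and secretion list, 2 of 17 for the destruction complex, and 1 of 15 beta-catenin partners. They were 2 of 19 target genes and 1 of 22 planar polarity genes. Of all genes, 8.6% passed with SHP2 miR1 (5.94% lower and 2.66% higher). Among the other ligand genes WNT6 was higher, at 7.32 with SHP2 miR1 against 6.71 with the CTRL miR (difference 0.60, adjusted p = 0.0445), while SHP2 miR2 averaged 6.68 (difference -0.03, adjusted p = 0.967). The glypican genes GPC4 and GPC6 were higher by 0.84 (adjusted p = 0.0160) and 0.55 (adjusted p = 0.0496). GSK3B, BTRC, BCL9 and DAAM1 fell by 0.83, 0.67, 0.84 and 0.90 (adjusted p = 0.0253, 0.0279, 0.0265 and 0.0206). GPC4 and DAAM1 were dim. With SHP2 miR2, GPC4 and GPC6 were both at 0.21, GSK3B at -0.47, BTRC at -0.25, BCL9 at -0.39 and DAAM1 at -0.14. None of them passed with SHP2 miR2 (adjusted p = 0.374 to 0.837). In SHP2 miR2 minus SHP2 miR1 none of these 7 genes passed, with adjusted p-values between 0.119 and 0.325. Their calls with SHP2 miR1 alone were not recomputed with an array left out.

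Among the markers used to check the cell type, the basal keratin gene KRT14 rose by 1.10 (adjusted p = 0.00440), averaged over both SHP2 miRs. The laminin gene LAMB3 fell by 1.07 (adjusted p = 0.00314). No other of the 8 measured basal markers passed on average, where 4.2% of all genes did. KRT14 was at 1.17 with SHP2 miR1 (adjusted p = 0.00455) and 1.02 with SHP2 miR2 (adjusted p = 0.0463). LAMB3 was at -1.60 with SHP2 miR1 (adjusted p = 0.000603) and -0.55 with SHP2 miR2 (adjusted p = 0.208). Its SHP2 miR2 minus SHP2 miR1 difference of 1.05 passed (adjusted p = 0.0421), where 0.19% of all genes did. Of the 7 endothelial markers, PECAM1 rose by 0.60 (adjusted p = 0.0422) and TEK fell by 1.38 (adjusted p = 0.000867) on average. The other 5 did not pass, where 4.2% of all genes passed. PECAM1 was at 0.65 with SHP2 miR1 (adjusted p = 0.0373) and 0.56 with SHP2 miR2 (adjusted p = 0.217). TEK was at -2.16 with SHP2 miR1 (adjusted p = 0.000134) and -0.59 with SHP2 miR2 (adjusted p = 0.157). Its SHP2 miR2 minus SHP2 miR1 difference of 1.57 passed too (adjusted p = 0.00499). CLDN5, which was not dim, was at 0.10 on average (adjusted p = 0.767). CDH5, VWF, KDR and EMCN were dim, and KDR was at 0.60 with SHP2 miR1 alone (adjusted p = 0.0418).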
